A study of Mus musculus with 9 samples.

Results

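A set of 10 genes of the melanocyte lineage and of pigment formation was followed by their symbols: Slc24a5, Dct, Tyr, Tyrp1, Pmel, Mlana, Mitf, Sox10, Kit and Oca2. All 10 were found among the 22195 genes of the tables, and their estimated reads were summed over the listed transcripts of each gene. The samples were skin tumors that grew from YUMMER1.7 cells placed under the skin of immunocompetent C57BL/6J mice. YUMMER1.7 cells are mouse melanoma cells that were exposed to ultraviolet light so that the immune system recognises them more readily. Treatment began once tumors measured 20 to 50 cubic millimetres. Mice received an antibody against B7-H3, an antibody against PD-1 (both immune checkpoint proteins) or an IgG isotype control, with 3 libraries in each group. The labels give no age, dose or time of collection, and nothing says whether each library is its own mouse, so the p-values cover no more than the spread among these libraries, which may be technical. All groups share the single tumor line, and tumor cells, skin and immune cells were measured together. In such bulk samples fewer cells of a type and less RNA per cell cannot be told apart.

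The libraries differed in ways that touch every value of these genes. Total estimated reads ran from 10105153 to 15447583 with anti-B7-H3, from 8627930 to 11256181 with anti-PD1 and from 13624172 to 27288766 with IgG. Major satellite genes, which are made of a tandem repeat beside mouse centromeres, took 5.24 to 28.2% of gene reads with anti-B7-H3, 14.6 to 38.2% with anti-PD1 and 87.0 to 92.0% with IgG. Reads left outside them came to 7239044 to 14408350 with anti-B7-H3, 5326276 to 9583684 with anti-PD1 and 1252540 to 3546706 with IgG. Receptor genes for odours and pheromones, normally silent outside sensory tissue, gave a level of background. They took 40.4 to 198 CPM (a count scaled to a common library size, here of the reads outside satellites) with anti-B7-H3, 78.3 to 280 CPM with anti-PD1 and 765 to 4842 CPM with IgG. Each gene below is therefore set beside the reads it would have at the receptor level for its coding length. Changes are fitted log2 fold changes from edgeR's quasi-likelihood test over all 9 libraries, with p-values adjusted by Benjamini-Hochberg over all 12980 tested genes and 0.05 as the threshold. Levels are CPM scaled by TMM, a method that centres on the typical gene.

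Melanocytes make melanin in melanosomes, organelles in which the enzymes tyrosinase (Tyr), Tyrp1 and Dct act on a protein scaffold built from Pmel. The transcription factor Mitf turns on most of these genes and is itself turned on by Sox10, while the receptor tyrosine kinase Kit carries survival and migration signals to melanocytes and their precursors. Melanoma cells can lose the pigment programme while they keep other traits of the lineage.

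Tyr, Tyrp1, Dct, Mlana and Oca2 did not clearly exceed the receptor background in any group, so these tumors lack clear expression of the enzymes that define pigment cells. With IgG, Tyrp1 and Oca2 lay below that level, which may therefore overstate the background in the IgG libraries. Pmel had 2 to 7 reads in every library. Its TMM-scaled level was highest with IgG, yet its reads exceeded the background only with the antibodies, where that background was lower. Mitf and Kit stood far above that background in the antibody groups. Mitf reads were mainly assigned to models of an isoform that is not the melanocyte one, an estimate given without error. Slc24a5 had 29 to 50 reads in each IgG library and 0 to 5 in each antibody library. Its fitted level was lower with both antibodies than with IgG, and it passed the filter on low counts only through its IgG reads. Both calls ended without IgG replicate 1 and with the receptor level as a covariate. Treatment and the make-up of the IgG libraries cannot be told apart in this design. Only Slc24a5, Mitf and Kit had enough reads for the test, and the other 7 genes were kept out by the filter on low counts.

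**Figure D1:**
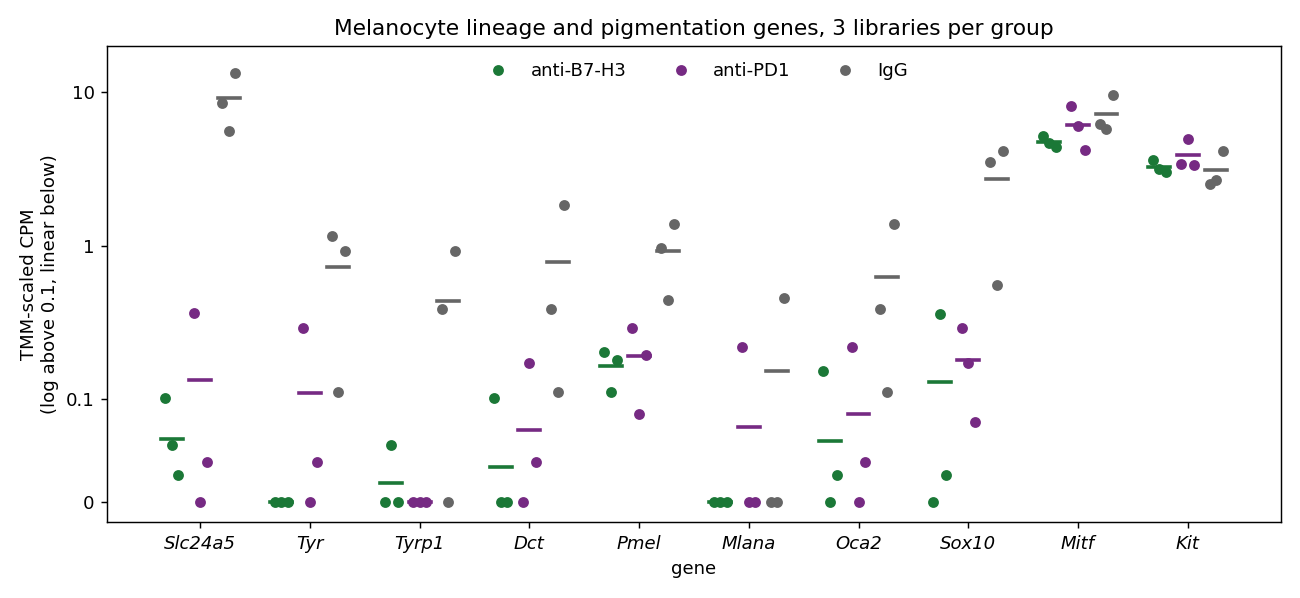
TMM-scaled CPM of the 10 genes, with a point per library (replicates 1 to 3 from left to right), a bar at the group mean, and an axis that is logarithmic above 0.1 and linear below. Mitf and Kit lie between 2.52 and 9.64 CPM in all libraries, while Slc24a5 lies between 5.58 and 13.3 CPM with IgG and at or below 0.364 CPM with either antibody.

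The 3 melanin enzymes were almost without reads. Tyr, the rate-limiting enzyme of melanin synthesis, had 0, 0 and 0 reads in the anti-B7-H3 libraries, 4, 0 and 1 in the anti-PD1 libraries and 6, 1 and 2 in the IgG libraries. Tyrp1, a melanosomal enzyme of the eumelanin branch, had 0, 2 and 0 reads with anti-B7-H3, 0, 0 and 0 under anti-PD1 and 2, 0 and 2 with IgG. Dct, which converts dopachrome, had 2, 0 and 0 reads with anti-B7-H3, 0, 4 and 1 under anti-PD1 and 2, 1 and 4 with IgG. None of these libraries held more than 6 reads of any of the 3 enzymes. In GRCm38 Tyr lies on chromosome 7 from 87424771 to 87493512 (minus strand), Tyrp1 on chromosome 4 from 80834123 to 80851719 (plus strand) and Dct on chromosome 14 from 118012790 to 118052244 (minus strand). At the receptor level Tyr would have had 13.5 reads over the IgG libraries, against the 9 found, a ratio of 0.67 with an exact 95% Poisson interval of 0.31 to 1.27. Such intervals cover counting error only. The same ratios were 0.29 (0.08 to 0.75) for Tyrp1 and 0.54 (0.22 to 1.10) for Dct with IgG.

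A fold for these enzymes can be given only as a bound. Taking 3 reads over the group as the limit that a count of 0 allows, Tyr was at least 15.2-fold lower with anti-B7-H3 than with IgG, in CPM of the reads outside the satellite genes. A bound was given only for genes with more than 3 IgG reads. IgG replicate 1 held 6 of the 9 IgG reads of Tyr, and the 3 left without it fall short of that rule. The size of this bound thus rests on that library. Tyrp1 was at least 4.44-fold lower with anti-PD1 than with IgG, where its 4 reads lay in replicates 1 and 3. Leaving out either leaves 2 reads, too few for a bound by the same rule. On the same scale the receptor genes as a whole were 26.7-fold higher in IgG than with anti-B7-H3 and 14.1-fold higher in IgG than with anti-PD1. Both bounds thus lie under the ratio of the background itself.

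The structural genes Pmel and Mlana were also low. Pmel, whose product forms the fibrils on which melanin is laid down, had 4, 4 and 7 reads with anti-B7-H3, 4, 2 and 5 under anti-PD1 and 5, 4 and 3 with IgG. In raw reads the groups overlapped. The gene lies on chromosome 10 from 128704195 to 128720238 (GRCm38, plus strand) and overlaps the ends of Cdk2 and Dgka, so its few reads may be shared with them. Against the receptor level Pmel stood at 5.01 (interval 2.80 to 8.26) with anti-B7-H3, 2.94 (1.47 to 5.26) with anti-PD1 and 0.76 (0.39 to 1.32) with IgG. In the antibody groups its few reads therefore exceeded the background, and with IgG they did not. The group totals were alike, at 15 reads with anti-B7-H3, 11 with anti-PD1 and 12 with IgG. The background differed, at 3.00 reads with anti-B7-H3, 3.74 with anti-PD1 and 15.8 with IgG. TMM-scaled levels of Pmel went the other way, averaging 0.165 CPM with anti-B7-H3, 0.191 with anti-PD1 and 0.931 with IgG. Mlana, which encodes the melanoma antigen MART-1, had 0, 0 and 0 reads with anti-B7-H3, 3, 0 and 0 under anti-PD1 and 0, 0 and 1 with IgG, and is given no fold because each group stands at or under the limit of 3 reads. Its ratio to the receptor level with anti-PD1 was 4.41 (0.91 to 12.9), an interval that includes that level.

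Oca2, a melanosomal membrane protein that sets melanosomal pH, had 3, 0 and 1 reads with anti-B7-H3, 3, 0 and 1 under anti-PD1 and 2, 1 and 3 with IgG. Its ratio to the receptor level was 1.00 (0.27 to 2.57) with anti-B7-H3, 0.80 (0.22 to 2.06) with anti-PD1 and 0.29 (0.10 to 0.62) with IgG. Summed over Tyr, Tyrp1, Dct, Pmel, Mlana and Oca2, grouped here after their values were seen, the reads were 23 with anti-B7-H3, 28 with anti-PD1 and 39 with IgG. At the receptor level these 6 genes would have had 15.1 reads with anti-B7-H3, 18.9 with anti-PD1 and 79.9 with IgG, which gives ratios of 1.52 with anti-B7-H3, 1.48 with anti-PD1 and 0.49 with IgG. In short transcript models a few reads make a high length-scaled value. Oca2 stood at 6.02 TPM, rescaled to the genes outside the satellites, in anti-PD1 replicate 1, where 1.93 of its 3 reads were assigned to a 179-base model. That value is not a sign of a high level.

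**Figure D2:**
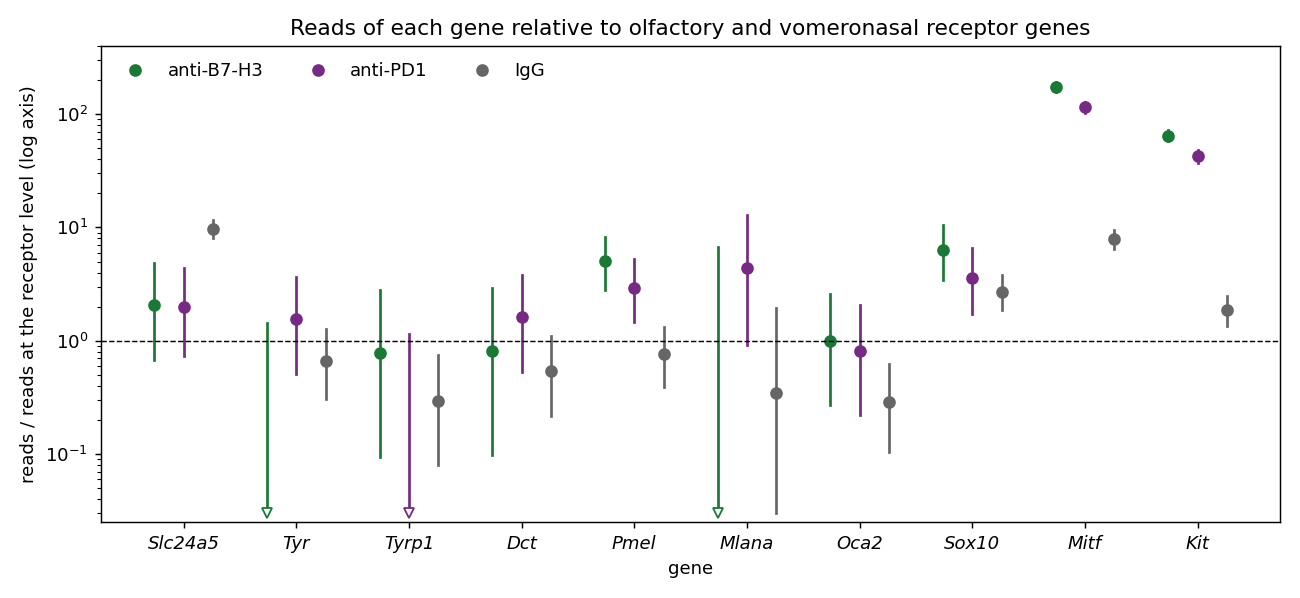
Reads of each gene over a group's 3 libraries, divided by the reads expected at the level of the receptor genes for its coding length (log axis), with exact 95% Poisson intervals and an open triangle where no read was found. The dashed line marks the receptor level, and only Mitf and Kit with the antibodies lie above 40 times that level.

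Slc24a5 encodes a cation exchanger of the melanosome membrane that is known as a major pigmentation gene in zebrafish and people. Estimated reads were 2, 2 and 1 in the anti-B7-H3 libraries, 5, 0 and 1 in the anti-PD1 libraries and 44, 50 and 29 in the IgG libraries. No IgG library came near an antibody library, although the IgG libraries held fewer reads outside the satellite genes. TMM-scaled levels were 0.102, 0.0555 and 0.0257 CPM with anti-B7-H3, 0.364, 0 and 0.0392 CPM with anti-PD1, and 8.55, 5.58 and 13.3 CPM with IgG. As TPM (a level per coding length) rescaled to the genes outside the satellites, Slc24a5 stood at 0.159, 0.0825 and 0.0383 in anti-B7-H3 libraries, 0.503, 0 and 0.0603 in anti-PD1 libraries and 8.10, 6.93 and 7.77 in IgG libraries. On this scale the IgG libraries were closer together.

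The fitted log2 fold change of Slc24a5 was -7.19 ± 0.90 (SE) for anti-B7-H3 against IgG (edgeR adjusted p = 0.0058) and -6.32 ± 0.87 for anti-PD1 against IgG (edgeR adjusted p = 0.013). It was lower in 3 of 3 libraries of each antibody group than in every IgG library, which also held for 8.56% of all tested genes under anti-B7-H3 and for 11.9% under anti-PD1. The 2 comparisons share the IgG libraries and are not independent. Of all tested genes, 0.609% passed the threshold for anti-B7-H3 against IgG, 0.601% as lower, and 0.408% passed for anti-PD1 against IgG, 0.401% as lower. Slc24a5 passed the filter on low counts only through its IgG reads, which sets its direction, so these shares lend its call no support. Without IgG replicate 1 the call ended in both comparisons, at -7.22 under anti-B7-H3 (edgeR adjusted p = 0.074) and -6.32 under anti-PD1 (edgeR adjusted p = 0.12). Without anti-PD1 replicate 3 it ended for anti-PD1, at -5.81 (edgeR adjusted p = 0.085). Without anti-PD1 replicate 1 the anti-PD1 value moved to -8.36. With library totals the values were -3.77 under anti-B7-H3 (edgeR adjusted p = 1.4e-05) and -3.12 under anti-PD1 (edgeR adjusted p = 2.3e-04). That scaling moved the median of all tested genes to 3.37 under anti-B7-H3 and to 3.15 under anti-PD1. It called 12539 genes under anti-B7-H3 and 12342 under anti-PD1. With the receptor level as a covariate, Slc24a5 stood at -3.90 ± 1.36 under anti-B7-H3 and at -3.79 ± 1.11 under anti-PD1, and neither passed (edgeR adjusted p = 1 for anti-B7-H3 and 0.92 for anti-PD1).

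Between the antibody groups Slc24a5 did not pass (log2 fold change -0.87 ± 1.18 for anti-B7-H3 against anti-PD1, edgeR adjusted p = 0.88), with values that overlapped. The sign of that difference turned to 1.18 ± 1.32 without anti-PD1 replicate 1, the library that held 5 of the 6 anti-PD1 reads.

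Unlike the enzymes, Slc24a5 exceeded the receptor level with IgG, as Mitf, Sox10 and Kit also did. The 123 IgG reads were 9.71 times that level (interval 8.07 to 11.6), and the ratios of the single IgG libraries were 9.76, 19.8 and 5.14. With the antibodies the ratio was 2.08 (0.68 to 4.86) for anti-B7-H3 and 2.00 (0.74 to 4.36) for anti-PD1, intervals that include the receptor level. Leaving out libraries in turn, a check chosen after seeing the data, put anti-PD1 at 0.62 without replicate 1. All reads came from the only Slc24a5 model in the tables, of 1506 coding bases. The gene lies on chromosome 2 from 125068124 to 125088677 (GRCm38, plus strand), and 4050 of its bases overlap Myef2 on the other strand. No source used here says whether the counting used strand. Myef2 averaged 34.3 ± 5.31 CPM (SD, n = 3) with anti-B7-H3, 35.4 ± 3.99 with anti-PD1 and 27.2 ± 5.70 with IgG, with log2 fold changes against IgG of 0.32 ± 0.20 under anti-B7-H3 (edgeR adjusted p = 0.63) and 0.36 ± 0.20 under anti-PD1 (edgeR adjusted p = 0.36). The neighbour's total thus did not share the pattern. That total does not show whether reads in the shared bases were counted for Slc24a5, which was not tested.

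The named genes whose log2 CPM followed Slc24a5 most closely over the 9 libraries were Nfe2l3, Inafm1, Megf9, Cnbd2 and Muc5b, with Pearson correlations of 0.992, 0.983, 0.979, 0.979 and 0.978. These values describe 9 libraries that share 3 treatments and the split in satellite reads. None of the 5 belongs to the pigment genes. Muc5b, a mucin of airway epithelium, had 5, 1 and 2 reads with anti-B7-H3, 5, 2 and 4 under anti-PD1 and 42, 28 and 50 with IgG. Nfe2l3, a transcription factor, had 3, 1 and 3 reads with anti-B7-H3, 6, 1 and 4 under anti-PD1 and 22, 33 and 14 with IgG. Inafm1 and Megf9 were not confined to IgG in raw reads. Inafm1 had 13, 25 and 24 reads with anti-B7-H3, 12, 13 and 11 under anti-PD1 and 16, 30 and 13 with IgG. Megf9 had 52, 93 and 95 reads with anti-B7-H3, 53, 63 and 61 under anti-PD1 and 31, 45 and 14 with IgG. Of the 20 closest genes of any name, 6 were models without a proper symbol.

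To show where the pigment genes carry the sequence that Mitf binds, the windows around the motif CATGTG were taken from the RefSeq promoter table (GRCm38.p6). The table covers 250 bases before to 50 after each gene start and holds 7 of the 10 genes. The motif was searched on both strands (CATGTG or CACATG), and its letters are in capitals. Windows are cut at the RefSeq gene start, which can differ from the GENCODE start used for the positions above.
Slc24a5 (chr2:125068089-125068126, plus strand): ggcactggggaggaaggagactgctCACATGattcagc
Tyr (chr7:87493513-87493558, minus strand): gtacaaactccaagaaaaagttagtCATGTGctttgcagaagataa
Tyrp1 (chr4:80834142-80834197, plus strand): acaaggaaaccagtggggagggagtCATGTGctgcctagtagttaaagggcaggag
Dct (chr14:118052366-118052421, minus strand): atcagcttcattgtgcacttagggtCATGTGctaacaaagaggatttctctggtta

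The motif begins 13 bases before the listed start in Slc24a5, 21 in Tyr, 46 in Tyrp1 and 150 in Dct, and it also occurs in the Oca2 promoter. Dct has a further match that begins 232 bases before its start. The table lists 10 promoters for the 7 genes, of which 5 hold the motif, 1 in each of 5 genes, against 14.2% of all 32851 promoters there. The promoters listed for Kit and Mitf have no match. A match is a description of the letters only, and of the 4 genes shown Tyr, Tyrp1 and Dct did not exceed the background in these tumors.

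Mitf, the master transcription factor of melanocytes, was the most strongly read of the 10 genes in both antibody groups. It had 102, 167 and 170 reads with anti-B7-H3, 112, 140 and 108 under anti-PD1 and 32, 52 and 21 with IgG. Against the receptor level Mitf stood at 174 (158 to 191) with anti-B7-H3, 115 (103 to 127) with anti-PD1 and 7.89 (6.46 to 9.56) with IgG. TMM-scaled levels were 5.21, 4.63 and 4.36 CPM with anti-B7-H3, 8.15, 6.03 and 4.23 CPM with anti-PD1 and 6.21, 5.80 and 9.64 CPM with IgG. All 3 anti-B7-H3 levels lay under the IgG levels, whereas the anti-PD1 levels overlapped them. On that scale 8.56% of all tested genes were lower with anti-B7-H3 than with IgG without overlap, so this separation is a common outcome.

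The fitted change of Mitf did not pass in any comparison. Set against IgG, its log2 fold change was -0.55 ± 0.29 under anti-B7-H3 (edgeR adjusted p = 0.55) and -0.18 ± 0.29 under anti-PD1 (edgeR adjusted p = 0.78). Between the antibodies it was -0.37 ± 0.27, anti-B7-H3 over anti-PD1 (edgeR adjusted p = 0.80). The direction against IgG depended on the scaling. With library totals, which count the satellite reads and move the median of all tested genes to 3.37 under anti-B7-H3 and to 3.15 under anti-PD1, Mitf stood at 2.82 under anti-B7-H3 and at 2.96 under anti-PD1, below those medians. Scaled by reads outside the satellite genes it was -0.27 under anti-B7-H3 and 0.0915 under anti-PD1, where the medians of all genes were 0.29 under anti-B7-H3 and 0.26 under anti-PD1.

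**Figure D3:**
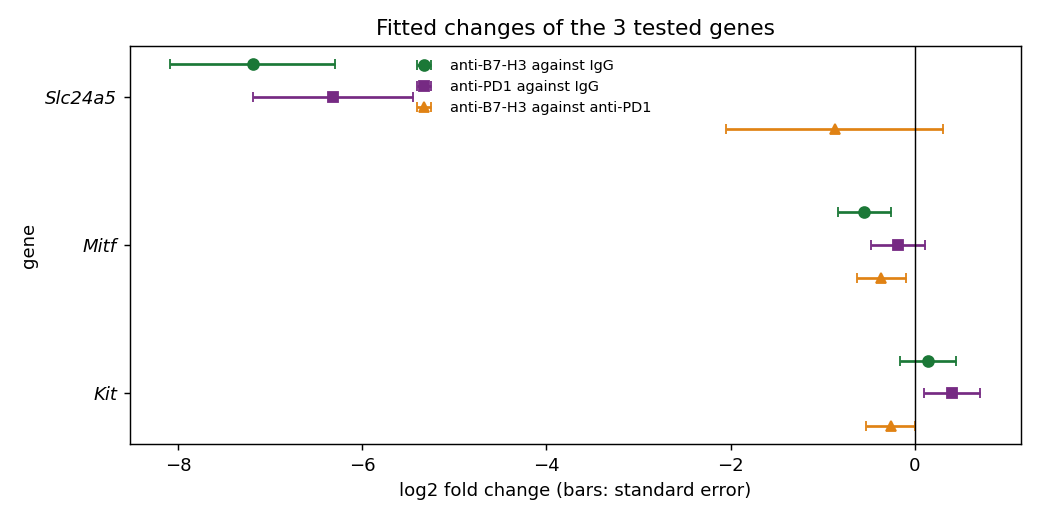
Log2 fold changes with standard errors of the 3 tested genes in the 3 comparisons. Slc24a5 is at -7.19 and -6.32 against IgG, while every value of Mitf and Kit lies between -0.55 and 0.41.

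Mitf has several promoters, and each gives its protein a different beginning. The melanocyte isoform starts in exon M, and isoform A, which many cell types make, starts in exon A far upstream. The tables list separate models, and their coding starts are shown because they tell the isoforms apart (GENCODE M21, GRCm38, plus strand of chromosome 6).
Exon M (chr6:97991921-97991953), used by the full-length melanocyte model, Mitf-205 and Mitf-208: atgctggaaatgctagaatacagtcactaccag
Exon A (chr6:97807184-97807287), used by Mitf-202 and Mitf-207: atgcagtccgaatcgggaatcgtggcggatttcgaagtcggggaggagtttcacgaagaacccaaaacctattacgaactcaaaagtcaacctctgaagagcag

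Over all 9 libraries, 748 of 904 estimated Mitf reads (82.7%) were assigned to models that start in exon A and 78.5 (8.68%) to models that start in exon M. The share of exon M was 5.17, 0 and 6.04% in the anti-B7-H3 libraries, 32.9, 10.6 and 8.77% in the anti-PD1 libraries and 0, 3.51 and 0% in the IgG libraries. Exon A took 72.3, 91.4 and 78.4% with anti-B7-H3, 67.1, 89.4 and 78.3% under anti-PD1 and 100, 96.5 and 100% with IgG. Exon A was thus the main start in every library. The full-length melanocyte model had 5.27 reads in anti-B7-H3 replicate 1 and 9.48 in anti-PD1 replicate 3, and the remaining 7 libraries had 0. The larger share in anti-PD1 replicate 1 came from Mitf-208, a shorter model with 36.8 reads there. Mitf-204 has a coding start of its own, marked by 29 bases that the exon A models lack. The rest of its first coding exon of 279 bases is shared with them. Mitf-204 took 22.6, 8.55 and 15.6% with anti-B7-H3, 0, 0 and 13.0% under anti-PD1 and 0, 0 and 0% with IgG. The models share most of their sequence, and the tables give no error for how reads were divided among them, so these shares are the authors' estimates with no interval and no test.

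The models also differ in an 18-base segment that adds amino acids just before the part that binds DNA. It is shown in capitals within its coding context (segment chr6:98006123-98006140, plus strand).
Mitf-202: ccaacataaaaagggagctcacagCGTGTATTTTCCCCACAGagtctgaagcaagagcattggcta

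Models with the segment took 91.0, 64.7 and 53.0% of Mitf reads with anti-B7-H3, 33.7, 38.4 and 80.2% under anti-PD1 and 58.1, 0 and 0% with IgG. Both forms were found in every antibody library. With IgG the total of Mitf reads was 105, and replicates 2 and 3 had none on models with the segment.

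Sox10, the neural crest factor that turns on Mitf and also marks Schwann cells, had 0, 13 and 1 reads with anti-B7-H3, 4, 4 and 2 under anti-PD1 and 18, 5 and 9 with IgG. Of the 14 anti-B7-H3 reads, 13 were in replicate 2. Sox10 lies on chromosome 15 from 79154908 to 79165240 (GRCm38, minus strand). TMM-scaled levels averaged 0.129 ± 0.201 CPM (SD, n = 3) with anti-B7-H3, 0.180 ± 0.107 with anti-PD1 and 2.73 ± 1.91 with IgG. Each antibody group lay below every IgG library, and the antibody groups overlapped each other. Against the receptor level Sox10 stood at 6.27 (3.43 to 10.5) with anti-B7-H3, 3.59 (1.72 to 6.60) with anti-PD1 and 2.71 (1.86 to 3.83) with IgG. The anti-B7-H3 ratio rested on replicate 2: without it 1 read was left, at 0.57 times the receptor level. Sox10 was not tested. In the fit without a filter on low counts, Sox10 was at -3.93 ± 1.15 for anti-B7-H3 against IgG (edgeR adjusted p = 0.048) and -3.63 ± 1.16 for anti-PD1 against IgG (edgeR adjusted p = 0.069). That fit called 1040 of 21641 genes for anti-B7-H3 against IgG, 919 of them as lower.

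Of the 7 genes kept out of the test, 4 (Dct, Tyr, Pmel and Sox10) were lower with anti-B7-H3 than with IgG without overlap on the TMM scale, and 2 (Pmel and Sox10) were so with anti-PD1. Among all 8661 genes with reads under the filter, the same was true of 34.0% under anti-B7-H3 and 30.3% under anti-PD1. Separation of this kind was therefore common among sparsely read genes.

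Kit, the receptor for stem cell factor on melanocytes and mast cells, had 71, 114 and 118 reads with anti-B7-H3, 47, 115 and 86 under anti-PD1 and 13, 24 and 9 with IgG. TMM-scaled levels were 3.63, 3.16 and 3.03 CPM with anti-B7-H3, 3.42, 4.95 and 3.37 CPM with anti-PD1 and 2.52, 2.68 and 4.13 CPM with IgG. The 3 groups overlapped. Kit lies on chromosome 5 from 75574916 to 75656722 (GRCm38, plus strand). Set against IgG, its log2 fold change was 0.14 ± 0.30 under anti-B7-H3 (edgeR adjusted p = 0.92) and 0.41 ± 0.30 under anti-PD1 (edgeR adjusted p = 0.50). Between the antibodies it was -0.26 ± 0.27, anti-B7-H3 over anti-PD1 (edgeR adjusted p = 0.85), and none of these passed. Relative to the receptor level Kit stood at 64.7 (57.6 to 72.4) with anti-B7-H3, 42.4 (37.3 to 48.0) with anti-PD1 and 1.86 (1.36 to 2.48) with IgG. Kit was thus far above background with the antibodies and slightly above it with IgG. The IgG ratio was 2.07 without replicate 1, 1.11 without replicate 2 and 2.70 without replicate 3. Without replicate 1 Kit stood at 112 for anti-B7-H3 and at 64.0 for anti-PD1.

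The 2 Kit models in the tables differ by 12 coding bases next to the membrane-spanning part, the known GNNK insert. It is shown in capitals in its context, since it is the only difference by which reads could be told apart (segment chr5:75639147-75639158, GRCm38, plus strand).
Kit model with the insert: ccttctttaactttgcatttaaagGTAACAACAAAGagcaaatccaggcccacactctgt

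The model with the insert was given 0, 0 and 65.3 reads with anti-B7-H3, 0, 24.8 and 0 under anti-PD1 and 0, 0 and 0 with IgG. The model without it, Kit-204, took all Kit reads in 7 of 9 libraries, and 44.6% in anti-B7-H3 replicate 3 and 78.5% in anti-PD1 replicate 2. As for Mitf, these splits are estimates with no error given.

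**Figure D4:**
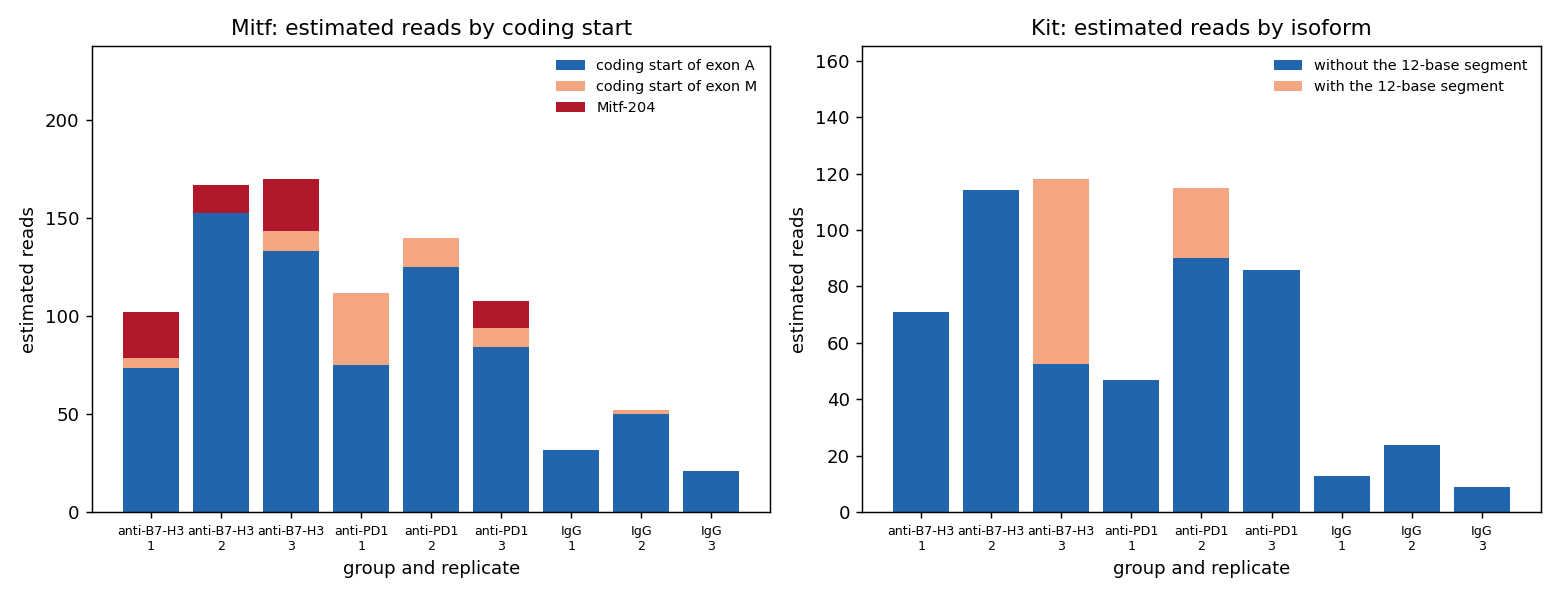
Estimated reads of Mitf by coding start (left) and of Kit by the 12-base insert (right) in each library, as stacked bars. Exon A is the main Mitf start in every library, and the Kit insert appears in 2 libraries, with 65.3 and 24.8 reads.

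Compared per length, as TPM rescaled to the genes outside the satellites, Mitf was the highest of the 10 genes with the antibodies, at 6.98 ± 0.80 (SD, n = 3) in anti-B7-H3 and 9.05 ± 3.26 in anti-PD1 libraries. Kit followed at 2.40 ± 0.29 in anti-B7-H3 and 2.66 ± 0.46 in anti-PD1 libraries. With IgG, Slc24a5 at 7.60 ± 0.60 and Mitf at 6.56 ± 1.85 led and did not differ beyond their spread, followed by Sox10 at 2.33 ± 1.45 and Kit at 1.30 ± 0.26. Mitf and Kit together held 93.0 to 96.6% of the reads of the 10 genes with anti-B7-H3, 87.4 to 96.2% with anti-PD1 and 36.1 to 55.1% with IgG. Slc24a5 held 0.336 to 1.09% with anti-B7-H3, 0 to 2.75% with anti-PD1 and 34.9 to 36.2% with IgG.

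Other genes of the pathway were read from lists that served to place these 10. Of 35 genes of melanosome formation and transport, 30 were tested and 0 passed in any comparison, with median log2 fold changes of 0.07 for anti-B7-H3 against IgG and -0.03 for anti-PD1 against IgG, beside 0.03 and 0.01 over all tested genes. Those kept out of the test were Gpr143, Slc45a2, Trpm1, Cited1 and Rab38. Slc45a2, a melanosomal transporter named here after its values were seen, had 1, 0 and 0 reads with anti-B7-H3, 1, 0 and 1 under anti-PD1 and 3, 1 and 4 with IgG. Bloc1s3, a subunit of the BLOC-1 complex that sorts melanosome cargo, came nearest the threshold at 0.709 ± 0.172 CPM with anti-B7-H3, 0.614 ± 0.192 with anti-PD1 and 3.44 ± 0.783 with IgG, with log2 fold changes against IgG of -2.24 ± 0.46 under anti-B7-H3 and -2.44 ± 0.47 under anti-PD1 (edgeR adjusted p = 0.056 for each). Bloc1s4, of the same complex, was at -0.34 ± 0.34 under anti-B7-H3 (edgeR adjusted p = 0.78) and -1.20 ± 0.35 under anti-PD1 (edgeR adjusted p = 0.12). Gpnmb, a melanosomal glycoprotein that macrophages also make, averaged 9.64 ± 4.07 CPM with anti-B7-H3, 6.02 ± 1.70 with anti-PD1 and 11.3 ± 2.12 with IgG.

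Of 17 transcription factors of the neural crest and of melanoblasts, 15 were tested and 0 passed, with median log2 fold changes against IgG of -0.27 under anti-B7-H3 and -0.25 under anti-PD1. Tfeb, a relative of Mitf that controls lysosomes, was at -0.72 ± 0.27 under anti-B7-H3 against IgG (edgeR adjusted p = 0.32) and at -0.82 ± 0.27 under anti-PD1 (edgeR adjusted p = 0.15). Lef1, a factor of Wnt signalling, was at -0.47 ± 0.26 under anti-B7-H3 and -0.61 ± 0.27 under anti-PD1. Tfap2a, a neural crest factor, averaged 17.0 ± 1.35 CPM with anti-B7-H3, 12.7 ± 7.51 with anti-PD1 and 23.2 ± 6.89 with IgG. Msx1, a homeobox factor, averaged 2.41 ± 0.896 CPM with anti-B7-H3, 1.39 ± 0.462 with anti-PD1 and 1.65 ± 0.419 with IgG. Pax3, which works upstream of Mitf and is named here after its values were seen, had 411, 537 and 402 reads with anti-B7-H3, 251, 335 and 545 under anti-PD1 and 109, 181 and 43 with IgG. Foxd3, an early neural crest factor likewise named afterwards, was sparse, with 2, 0 and 2 reads in anti-B7-H3, 6, 1 and 1 in anti-PD1 and 13, 7 and 17 in IgG libraries. Factors upstream of Mitf thus ranged from well read to nearly unread.

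Of 14 listed genes of melanocortin and stem cell factor signalling, 13 were in the tables, 8 were tested and 0 passed. Mc1r, the melanocortin receptor of melanocytes, named here after its values were seen, had 0, 1 and 0 reads with anti-B7-H3, 0, 0 and 0 under anti-PD1 and 3, 2 and 3 with IgG. Creb1, a factor that carries the melanocortin signal to the Mitf gene, was at -1.19 ± 0.34 under anti-B7-H3 against IgG (edgeR adjusted p = 0.16) and -0.99 ± 0.34 under anti-PD1 (edgeR adjusted p = 0.17). Met, the receptor for hepatocyte growth factor, was at 0.33 ± 0.20 under anti-B7-H3 (edgeR adjusted p = 0.62) and 0.73 ± 0.20 under anti-PD1 (edgeR adjusted p = 0.11). Its ligand gene Hgf was at -0.08 ± 0.33 under anti-B7-H3 and 0.51 ± 0.33 under anti-PD1, and the ubiquitin ligase Mgrn1 at 0.25 ± 0.23 under anti-B7-H3 and 0.24 ± 0.23 under anti-PD1. Of 18 genes of the undifferentiated melanoma state, 16 were tested and 0 passed, with median log2 fold changes against IgG of 0.08 under anti-B7-H3 and -0.11 under anti-PD1. The median was 0.19 between the antibodies. Their summed level was 1407 to 1609 CPM with anti-B7-H3, 1273 to 1423 with anti-PD1 and 1026 to 1517 with IgG. Most of it came from Axl, Tgfbi, Tnc and Aqp1, which averaged 385, 422, 242 and 237 CPM with anti-B7-H3. Which cells supplied these reads was not tested. The 10 pigment and lineage genes summed to 7.65 to 9.40 CPM with anti-B7-H3, 8.03 to 13.2 with anti-PD1 and 15.4 to 38.1 with IgG. The sums cover 18 and 10 genes and are not per length, so they do not compare these programmes. Egfr, a growth factor receptor, was at 0.32 ± 0.20 under anti-B7-H3 (edgeR adjusted p = 0.63) and 0.70 ± 0.20 under anti-PD1 (edgeR adjusted p = 0.11), each against IgG. Fosl1, an AP-1 factor, was at -0.26 ± 0.27 under anti-B7-H3 and -0.82 ± 0.28 under anti-PD1, and Tead4, a Hippo pathway factor, at 0.12 ± 0.37 under anti-B7-H3 and -0.79 ± 0.38 under anti-PD1.

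Between the antibody groups 0 of 12980 genes passed in edgeR (0% of those tested, 841 at an unadjusted p under 0.05, and 24 with DESeq2), and none of the 3 tested pigment and lineage genes did. None of those 3 was separated without overlap, as 7.57% of tested genes were as higher and 7.89% as lower. Of the 7 others none was, against 1.41% as higher and 3.98% as lower of the sparsely read genes. Slc7a11, a cystine transporter that shapes pigment colour, was at 1.38 ± 0.46 and Nt5e, an ectoenzyme, at 1.23 ± 0.47 for anti-B7-H3 against anti-PD1 (edgeR adjusted p = 0.75 for each).

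Markers of other cells that could supply these transcripts moved unevenly. The summed level of 20 keratinocyte and hair follicle markers was 2.03 to 4.80 CPM with anti-B7-H3, 2.63 to 7.20 with anti-PD1 and 32.8 to 100 with IgG, the same separation of the groups as for Slc24a5. The receptor genes were also higher in IgG, 26.7-fold than with anti-B7-H3 and 14.1-fold than with anti-PD1, per reads outside the satellite genes. This sum was not tested apart from that background. Only 5 of the 20 markers passed the filter on low counts. Among all sparsely read genes, 34.0% under anti-B7-H3 and 30.3% under anti-PD1 separated the same way. Of the 5 markers tested, Dsp, a desmosome protein, fell by 4.08 ± 0.80 on the log2 scale with anti-B7-H3 (edgeR adjusted p = 0.0499), and 0 passed with anti-PD1. Krt10, a keratin of differentiated skin, was at -3.48 ± 0.72 under anti-B7-H3 (edgeR adjusted p = 0.057) and -3.44 ± 0.73 under anti-PD1 (edgeR adjusted p = 0.063), and Col17a1, of the basal layer, at -2.15 ± 0.55 under anti-B7-H3 and -2.80 ± 0.58 under anti-PD1. Flg, filaggrin of the outer skin, had 15, 3 and 6 reads in anti-B7-H3, 39, 3 and 16 in anti-PD1 and 65, 59 and 91 in IgG libraries, high in all 3 IgG libraries as Slc24a5 was. The part of skin cells in the Slc24a5 result was not tested.

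The 12 Schwann cell markers, relevant to Sox10, summed to 13.5 to 16.8 CPM with anti-B7-H3, 11.4 to 16.8 with anti-PD1 and 19.6 to 44.1 with IgG, and 0 of 8 tested passed. Cdh19, a cadherin of Schwann cell precursors, was at -2.58 ± 0.86 under anti-B7-H3 and -3.04 ± 0.91 under anti-PD1 against IgG, and Erbb3, a neuregulin receptor, at -1.64 ± 0.87 under anti-B7-H3 and -1.90 ± 0.89 under anti-PD1. Egr2, a myelination factor, was at -0.63 ± 0.40 under anti-B7-H3 and -1.01 ± 0.40 under anti-PD1, and Pmp22 at 0.13 ± 0.34 under anti-B7-H3 and 0.56 ± 0.34 under anti-PD1. The 12 mast cell markers, relevant to Kit, summed to 44.5 to 70.4 CPM with anti-B7-H3, 43.9 to 50.5 with anti-PD1 and 47.7 to 62.0 with IgG, and 0 of 9 passed. The markers differed in direction. Hdc, which makes histamine, averaged 0.968 ± 0.219 CPM with anti-B7-H3, 0.227 ± 0.0782 with anti-PD1 and 2.62 ± 2.02 with IgG, with a log2 fold change of -3.31 ± 0.76 under anti-PD1 (edgeR adjusted p = 0.071). Gata2, a transcription factor, was at -0.60 ± 0.27 under anti-B7-H3 and -0.42 ± 0.27 under anti-PD1. The proteases Cpa3 and Cma1 had positive values, at 0.59 ± 0.42 and 1.08 ± 0.63 under anti-B7-H3 and at 1.00 ± 0.42 and 1.89 ± 0.62 under anti-PD1. Macrophages can also express Mitf. The 14 macrophage markers summed to 870 to 1517 CPM with anti-B7-H3, 644 to 1536 with anti-PD1 and 324 to 772 with IgG, with 0 of 14 past the threshold. Ctss, Mrc1, Fcgr4 and Adgre1, the 4 with the smallest p over the 3 groups, had log2 fold changes against IgG of 1.18, 1.49, 1.72 and 1.46 under anti-B7-H3 and of 0.67, 1.75, 0.55 and 1.32 under anti-PD1. None of the markers in these 4 lists was at 0 in all libraries. The share of Kit and Mitf reads that came from such cells was not tested.

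**Figure D5:**
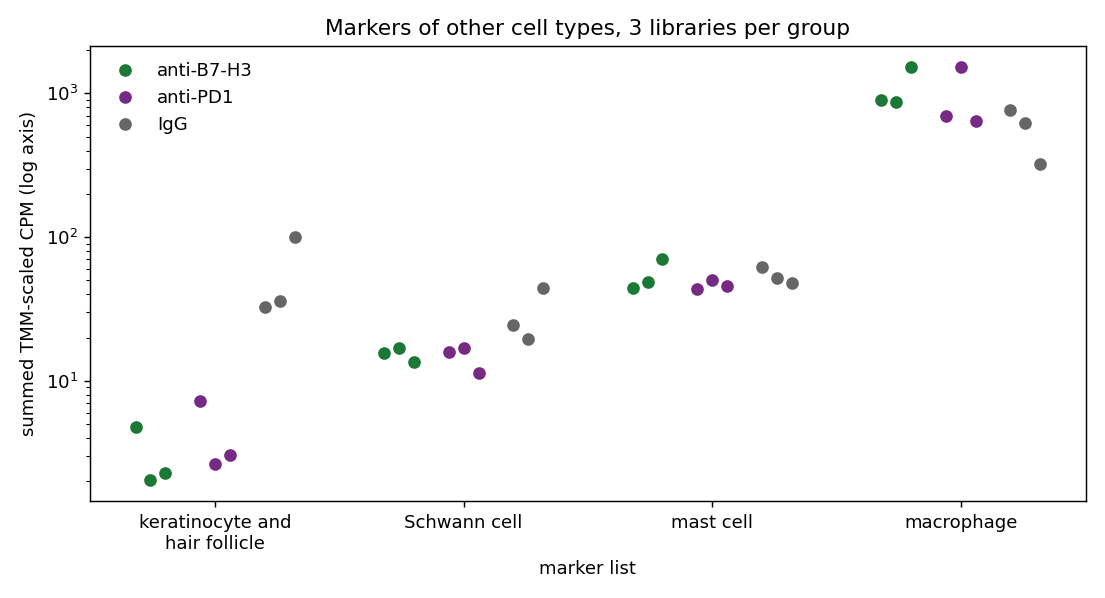
Summed TMM-scaled CPM of marker lists for 4 other cell types (log axis), with a point per library. The keratinocyte and hair follicle list separates IgG (32.8 to 100 CPM) from both antibody groups (2.03 to 7.20 CPM). The receptor genes used as background separate the groups in the same direction. The mast cell list, mostly Il1rl1 and Gata2, overlaps across groups.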

How the data were processed

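Per the file headers, each of 9 libraries has a deposited table of estimated counts per transcript, not normalized, beside the authors' TPM values, which are scaled by effective length. The labels' protocols give total RNA with an integrity number of at least 7.0, depleted of ribosomal RNA. The submitters' processing notes name FastQC 0.11.8 and GRCm38, and no source used here names the quantifier. Of 58083 transcripts, 57473 matched GENCODE M21 by identifier, and the others held 0.0537 to 0.344% of reads. Listed lengths equal the annotated coding sequence, with or without the stop codon, for 92.2% of transcripts that have one, so values hold no UTRs.

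Counts were summed over transcripts of 22195 genes and rounded. With edgeR 4.0.16 in R 4.3.3, TMM factors, filterByExpr and a robust quasi-likelihood fit to the 9 libraries together on group alone, 12980 genes were tested. The 12 satellite genes share over 30% of their 15-base words with Gm10800 and Gm10801. The 1510 receptor genes were chosen by symbol, and a gene's background is their reads per kb times its coding length. The test was checked on simulated counts. Alternatives used DESeq2 1.42.0, limma 3.58.1 (voom), other scalings and filters, a replicate block and left-out libraries. All 10 genes are named. Of every other list, the tested genes past the threshold and the 4 with the smallest p over the 3 groups are named, and, for called genes, the 5 closest in profile. Slc45a2, Pax3, Foxd3, Mc1r, Axl, Tgfbi, Tnc, Aqp1, Il1rl1 and Myef2 were added after their values were seen. The genes, the lists and the receptor and satellite measures were chosen with earlier results of these data known.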

Additional observations from a re-analysis of the deposited data

How the results depend on the processing

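The calls on these genes rested on few reads, which limit Slc24a5 with the antibodies to 11 reads in 6 libraries. The count of the 10 genes called was 1 for each antibody against IgG. It became 3 in both with library totals. It was 0 in both with at least 50 reads in 3 libraries (where Slc24a5 was not tested) and with the receptor level as a covariate. Without a filter it was 2 for anti-B7-H3, where Sox10 joined. There 1040 of all 21641 genes passed, 919 of them as lower. Without single libraries the count of the 10 genes called ran from 0 to 1. The 79 genes called for anti-B7-H3 became 12539 with library totals, 132 without the satellite genes in the totals, 1040 without a filter, 2 with the strict filter, 120 without robust estimation, 0 with the covariate, 20 with only the 2 groups compared and 502 with DESeq2, and ran from 8 to 454 without single libraries. The 53 for anti-PD1 became 12342 with library totals, 714 without a filter, 13 with the strict filter, 5 with the covariate, 89 with only the 2 groups, 822 with DESeq2, 82 with limma-voom and 9 to 438 without single libraries. The 0 between the antibodies became 23 with library totals, 4 without a filter and 24 with DESeq2, and stayed at 0 without any single library. With the replicate number as a block, anti-PD1 against IgG called 134 genes and anti-B7-H3 against IgG 103, and the same single gene among the 10. The numbers are not said to pair libraries, and same-numbered libraries did not deviate together (correlations from -0.32 to 0.18).

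Mitf changed direction against IgG: for anti-B7-H3 to 2.82 with library totals and 0.41 with the covariate, and for anti-PD1 to 2.96, to 0.0915 without satellite genes in the totals, to 0.0275 without a filter, to 0.56 with the covariate, to 0.0415 without anti-PD1 replicate 3 and to 0.0268 without IgG replicate 3 (range without single libraries -0.42 to 0.0415). Slc24a5 between the antibodies turned to 1.18 without anti-PD1 replicate 1 (range without single libraries -1.52 to 1.18). Kit kept its sign in all 3 comparisons under every alternative run. The cause of these changes was not tested.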
